A study of Homo sapiens with 4 samples.

Results

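The accessible chromatin at RUNX1, RUNX2, RUNX3, CBFB and MYH11 was described from ATAC-seq of ME-1 cells, in which the transposase Tn5 cuts open DNA. Peaks were taken as belonging to a gene if their midpoint lay in the gene or within 50 kb on either side, with approximate gene spans on hg19. Merging overlapping peaks of the 4 libraries gave 81 regions at the 5 genes, of 103230 regions in the genome. The 81 regions comprised 33 at RUNX1 (chr21:36110000-36472000), 19 at RUNX2 (chr6:45246000-45569000), 7 at RUNX3 (chr1:25176000-25342000), 13 at CBFB (chr16:67013000-67185000) and 9 at MYH11 (chr16:15747000-16001000).

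ME-1 is an established human leukaemia line with the rearrangement inv(16). All 4 libraries came from this line and all cells therefore carried the rearrangement. The control group received the solvent DMSO for 6 h, with 2 libraries, and the treated group received 1 µM AI-10-49, an inhibitor that keeps the fusion protein CBFβ-SMMHC from binding RUNX1, for 6 h, with 2 libraries. The design text calls the libraries of a group independent experiments without saying what was repeated, so p-values measure the spread between these libraries.

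RUNX1, RUNX2 and RUNX3 encode transcription factors that bind DNA through the Runt domain. CBFB encodes CBFβ, which does not bind DNA itself and strengthens the binding of each RUNX protein. RUNX1 is needed for the formation of blood stem cells, RUNX2 for bone, and RUNX3 acts in lymphocytes and neurons. In inv(16) the 5′ part of CBFB is joined to the 3′ part of MYH11, the gene of smooth muscle myosin heavy chain, so that the CBFB promoter drives the fusion. Each RUNX gene has a distal promoter, P1, and a proximal promoter, P2, which lies downstream of it within the gene. Reads from the rearranged and the normal chromosome 16 cannot be told apart in these peak lists.

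Below, the DMSO libraries are called controls and the AI-10-49 libraries treated, and pairs of values are in the order replicate 1, replicate 2. The control lists contained 67388 and 65132 peaks, the treated lists 48930 and 53438. Reads at each summit were recovered from the deposited fold and p-value. Background, taken as its most frequent value, was 0.0613 and 0.06 reads per base of control libraries and 0.0965 and 0.1076 per base of treated ones. The treated libraries thus had more reads per base. Heights are therefore also given as summit reads divided by the library's background, called fold over background below. Such heights are set side by side as a description and were not tested.

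RUNX1 had the most regions for the length of its window, the gene with its flanks. It held 91.2 regions per Mb, against 75.6 at CBFB, 58.8 at RUNX2, 42.2 at RUNX3, 35.4 at MYH11 and 34.0 over the genome, where length was taken up to the last peak of each chromosome. Of the 33 RUNX1 regions, 28 lay between the approximate ends of the gene. At RUNX2 14 of 19 did, at MYH11 5 of 9, at CBFB 4 of 13 and at RUNX3 2 of 7. Most CBFB and RUNX3 regions therefore lay in the flanks, which took 50 kb on either side of windows of 172 and 166 kb.

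**Figure D1:**
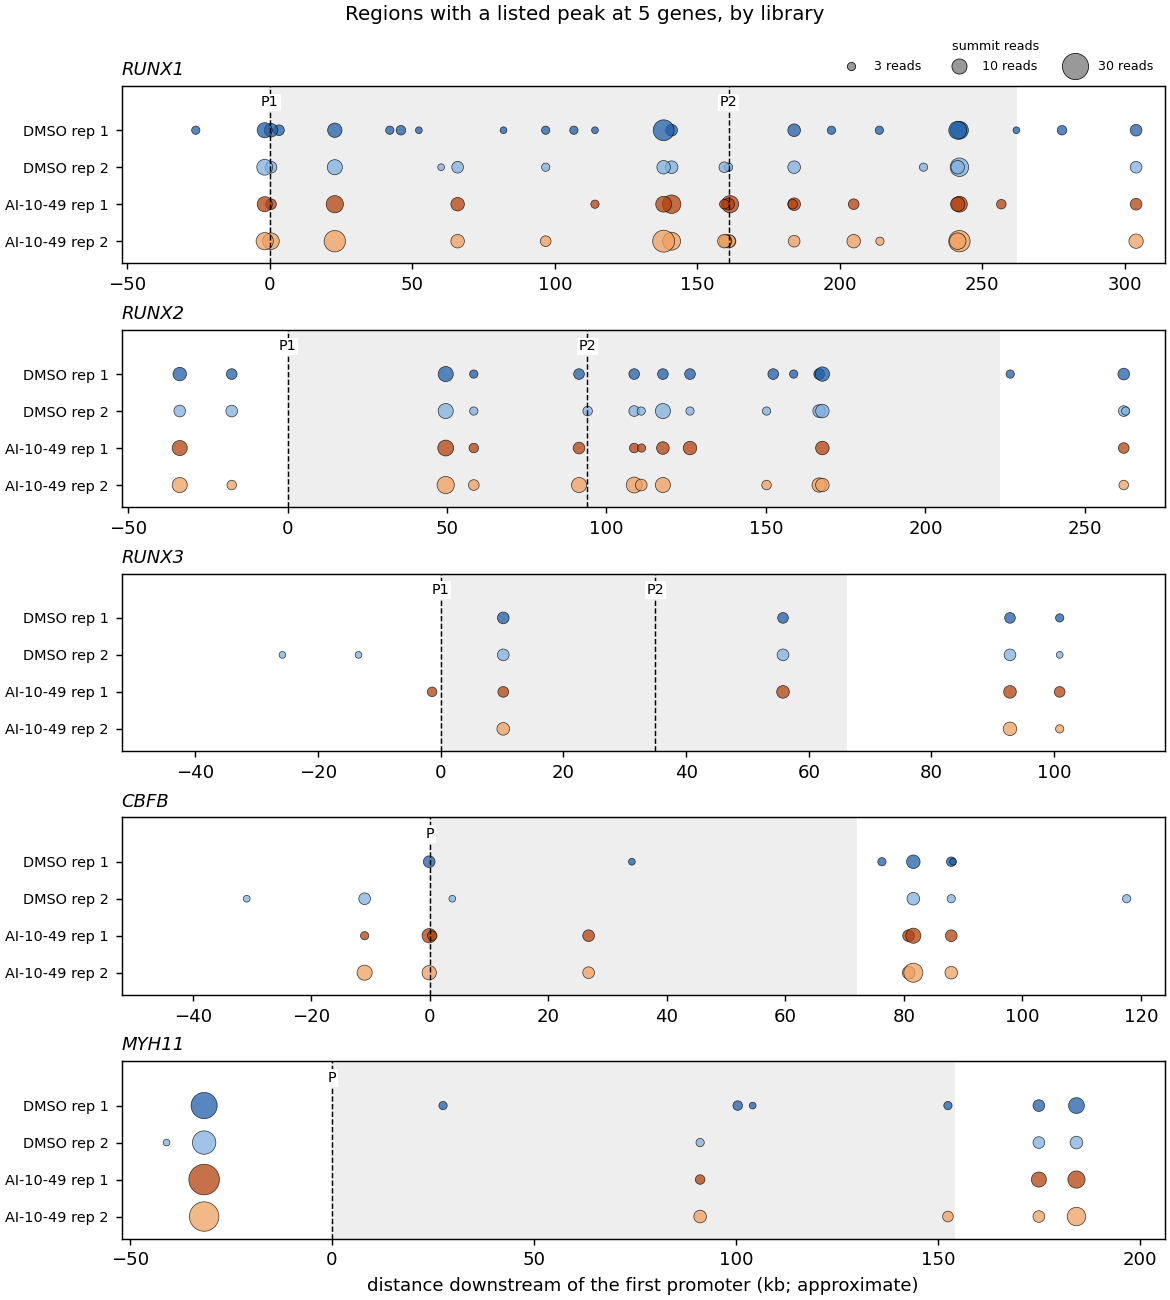
Each circle is a region with a listed peak, placed by its distance downstream of the gene's first promoter in kb (approximate) and by library, with an area proportional to the reads at the summit. Grey marks the gene and dashed lines the promoters; RUNX1 has regions along its whole length, and no circle lies on the MYH11 promoter or on P1 of RUNX2.

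Regions found in all 4 libraries made up 24 of the 81, or 29.6%, and over the genome they made up 28.1%. They numbered 9 at RUNX1, 7 at RUNX2, 3 at RUNX3, 2 at CBFB and 3 at MYH11. A single library listed 37 of the 81 regions, or 45.7%, against 43.9% over the genome. Of these 37, 17 lay at RUNX1, and none of the 37 had more than 7 reads. The 5 genes therefore had shares of shared and of single-library regions near those of all regions.

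The number of listed peaks at the 5 genes was 54 and 50 in the controls and 44 and 45 in the treated libraries. The groups did not overlap, with means of 52.0 ± 2.83 and 44.5 ± 0.707 (SD, n = 2 each). The two-sided exact permutation p was 0.333, the smallest that 2 against 2 libraries allow. Per 10000 peaks of the library the order was the opposite, at 8.01 and 7.68 in the controls and 8.99 and 8.42 in the treated libraries. Leaving out weak peaks changed the order under some limits and not under others. Limiting the −log10 q-value to 5 or more, they were 23 and 25 in the controls and 28 and 33 in the treated libraries, cutting each list to its 48930 strongest peaks, 36 and 36 against 44 and 43, and with at least 5 reads at the summit 30 and 29 against 33 and 40. With summits of at least 60 times the background they stayed lower in the treated libraries, at 34 and 32 against 28 and 31 (mean difference -3.5). Over the genome, regions in both lists of a single group and neither of the other numbered 4840 for DMSO and 1985 for AI-10-49. They were 1355 and 2436 with the q-value limit and 2489 and 3018 with equally long lists. With the read limit they were 1025 and 3132, and with the limit of 60 times the background 5237 and 689. Whether the 5 genes changed otherwise than all peaks was not tested.

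RUNX1 had 22 and 17 listed peaks in the controls and 17 and 18 in the treated libraries, and the groups met at 17. Per 10000 peaks its values were 3.26 and 2.61 in the controls and 3.47 and 3.37 in the treated libraries, so that the treated libraries were both above the controls (exact permutation p = 0.333). Without DMSO replicate 1, which had the most RUNX1 peaks, the mean difference in number turned from -2 to 0.5. RUNX2 had 15 and 16 peaks in the controls and 11 and 13 in the treated libraries. The RUNX2 groups did not overlap in number (exact permutation p = 0.333), and per 10000 peaks they did, at 2.23 and 2.46 against 2.25 and 2.43.

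RUNX3 had 4 and 6 peaks in the controls and 5 and 3 in the treated libraries, and MYH11 had 7 and 5 in the controls and 4 and 5 in the treated libraries. In both genes the groups overlapped. CBFB had 6 and 6 peaks in the controls and 7 and 6 in the treated libraries. Per 10000 peaks the CBFB values were 0.89 and 0.921 in the controls and 1.43 and 1.12 in the treated libraries, which did not overlap (exact permutation p = 0.333).

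**Figure D2:**
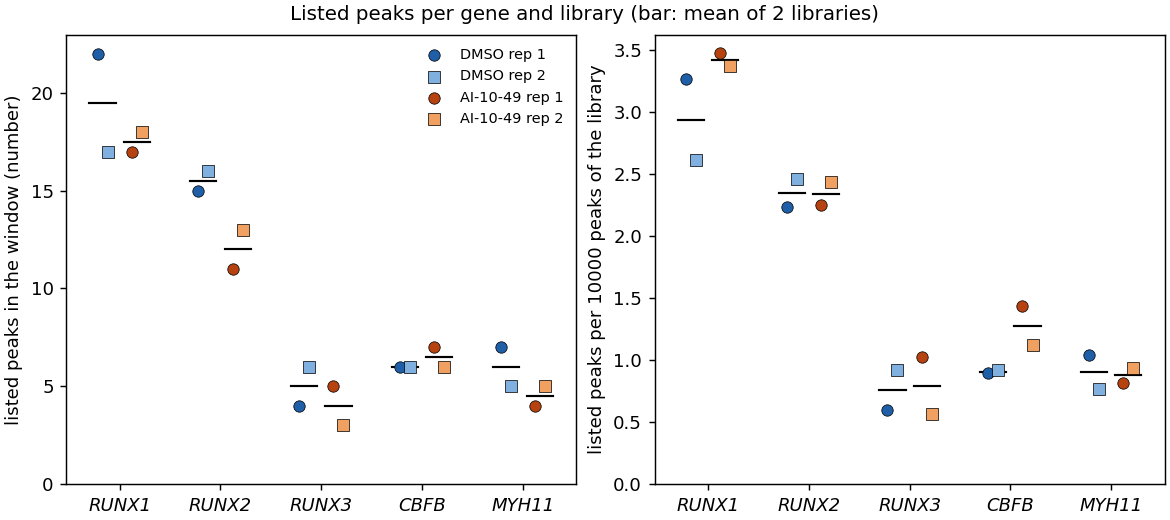
Listed peaks per gene in each library, as a number (left) and per 10000 peaks of the library (right); points are libraries and bars are means of 2 libraries. The groups do not overlap at RUNX2 in number (lower with AI-10-49) or at RUNX1 and CBFB per 10000 peaks (higher with AI-10-49).

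The promoters of the 5 genes differed in how often they were listed. A region was assigned to a promoter if its edge lay within 2 kb of the approximate start. P1 of RUNX1 was listed in every library. P2 of RUNX1 had 0 regions in DMSO replicate 1, 2 in DMSO replicate 2, 3 in AI-10-49 replicate 1 and 4 in AI-10-49 replicate 2. The CBFB promoter was listed in 3 libraries and missing in DMSO replicate 2. P1 of RUNX3 and P2 of RUNX2 were each listed in 1 library, and P1 of RUNX2, P2 of RUNX3 and the MYH11 promoter in none.

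The sequences before the RUNX starts are shown because RUNX proteins are known to bind promoters of RUNX genes. RefSeq's promoter table (GRCh38.p14) matched 3 of the 5 genes, with 5 starts. The 250 bases before a start are given 5′ to 3′ on the gene's strand, with copies of the RUNX motif TGTGGT, or its reverse complement ACCACA, in capitals. These sequences come from GRCh38.p14 and were not used to place any hg19 peak. The RUNX1 entry lay 160.6 kb downstream of the gene's first base in the same build and is taken as P2. The 3 sequences below are P2 of RUNX1, where peaks were listed mainly with AI-10-49, and P1 of RUNX2 and of RUNX3, where 0 and 1 libraries had a peak.
RUNX1 P2, chr21:34888700-34888949, minus strand: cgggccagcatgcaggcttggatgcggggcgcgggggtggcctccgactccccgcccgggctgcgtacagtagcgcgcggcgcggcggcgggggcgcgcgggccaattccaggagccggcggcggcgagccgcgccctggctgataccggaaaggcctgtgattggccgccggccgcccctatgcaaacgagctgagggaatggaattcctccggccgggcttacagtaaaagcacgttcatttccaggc
RUNX2 P1, chr6:45328080-45328329, plus strand: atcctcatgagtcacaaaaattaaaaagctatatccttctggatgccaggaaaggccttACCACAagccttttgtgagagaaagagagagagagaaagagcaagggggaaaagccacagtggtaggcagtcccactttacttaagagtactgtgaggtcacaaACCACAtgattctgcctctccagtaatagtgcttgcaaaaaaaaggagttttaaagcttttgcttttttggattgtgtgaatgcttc
RUNX3 P1, chr1:24965011-24965260, minus strand: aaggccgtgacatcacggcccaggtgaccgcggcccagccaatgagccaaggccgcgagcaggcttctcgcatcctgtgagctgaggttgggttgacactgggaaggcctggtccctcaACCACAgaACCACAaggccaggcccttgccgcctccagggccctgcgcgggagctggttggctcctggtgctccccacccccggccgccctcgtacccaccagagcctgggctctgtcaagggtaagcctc

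The P1 sequences of RUNX2 and RUNX3 held 2 copies of the motif each. In RUNX2 185 and 81 bases lay between the copies and the start, and in RUNX3 125 and 117 bases. P2 of RUNX1, RUNX2 and RUNX3 held 0 copies. At least 1 copy was present in 11% of the 35116 promoters in the table and 2 or more in 0.954%. A match is a string of letters and says nothing about binding in these cells.

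The same sequences differed in base composition. P2 of RUNX1 was 71.2% G or C with 32 CG dinucleotides, P2 of RUNX2 78.0% with 34 and P2 of RUNX3 78.4% with 33. P1 of RUNX2 was 41.6% G or C with 0 CG dinucleotides, and P1 of RUNX3 67.6% with 13. The median promoter of the table was 58% G or C with 11 CG dinucleotides. All 3 proximal promoters were thus rich in CG, whereas in ME-1 only P2 of RUNX1 had a region within 2 kb listed in more than 1 library. That contrast depends on the 2 kb limit and on approximate P2 positions of RUNX2 and RUNX3. Outside the limit but near P2 of RUNX2, chr6:45387349-45387474 was listed in 3 libraries.

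At P1 of RUNX1 the region chr21:36423640-36423917, 1.8 kb upstream of the start, had 10 and 11 summit reads in the controls and 10 and 13 in the treated libraries. These were 163.1 and 183.3 times the background in the controls and 103.6 and 120.8 times in the treated libraries. Over background both treated libraries lay below both controls, as at 47.9% of all regions listed in all 4 libraries. Its percentile among those 29042 regions was 49.8 and 65.4 in the controls and 41.3 and 48.3 in the treated libraries. The groups did not overlap in rank, as at 18.8% of such regions in this direction. The exact permutation p of 0.333 is the smallest possible for 2 against 2.

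The second P1 region, chr21:36421461-36421817, lay 0.4 kb downstream of the approximate start. It had 8 and 6 reads in the controls and 5 and 12 in the treated libraries, or 130.5 and 100.0 against 51.81 and 111.5 times the background. The groups overlapped, and the AI-10-49 replicates lay at both ends of the range. The peaks merged here did not all cover the same bases. AI-10-49 replicate 1 listed chr21:36421461-36421545 and replicate 2 chr21:36421638-36421774, which do not overlap each other, and DMSO replicate 2 listed a peak at either end of the region.

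P2 of RUNX1 consisted of 4 regions, none of which was listed in all 4 libraries. The region chr21:36260419-36260530 was listed with AI-10-49 only, with 13 and 6 reads, and in neither DMSO library. The region chr21:36260909-36261118, which contains the approximate P2 start, had 3 reads in DMSO replicate 2 and 6 and 8 with AI-10-49. Upstream of it, chr21:36262387-36262550 had 5 reads in DMSO replicate 2 and 4 and 8 with AI-10-49, and chr21:36262107-36262172 had 7 reads in AI-10-49 replicate 2 only. In the former, the peaks of AI-10-49 replicate 1 (chr21:36262488-36262550) and replicate 2 (chr21:36262387-36262466) do not overlap each other. DMSO replicate 1, which listed the most peaks at RUNX1, listed 0 of the 4.

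At the P2 regions that DMSO replicate 2 listed, heights over background were closer than reads or in another order. The region at the start stood at 50 times in DMSO replicate 2, and at 62.18 and 74.35 times with AI-10-49. At chr21:36262387-36262550 the control was at 83.33 times and the treated libraries at 41.45 and 74.35 times. The first P2 region was at 134.7 times in AI-10-49 replicate 1 and 55.76 times in replicate 2. At the DMSO backgrounds the same heights would be 8.26 and 8.08 reads for replicate 1, and 3.42 and 3.35 reads for replicate 2.

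The peak caller also set a local background around each summit, which was high at both RUNX1 promoters. At P2 it was 4.02 to 6.11 times the library's background, and at P1 5.25 to 7.73 times. At regions listed in all 4 libraries the median was 3.23 and 3.15 times in the controls and 2.59 and 2.66 times in the treated libraries. In DMSO lists, peaks with a local background of 4 to 6.5 times were listed from 3 reads upwards, with medians of 9 and 8. The height seen in AI-10-49 replicate 2 would lie close to that minimum and the height in AI-10-49 replicate 1 above it. The part of depth and of the listing limit in the P2 difference was not tested.

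**Figure D3:**
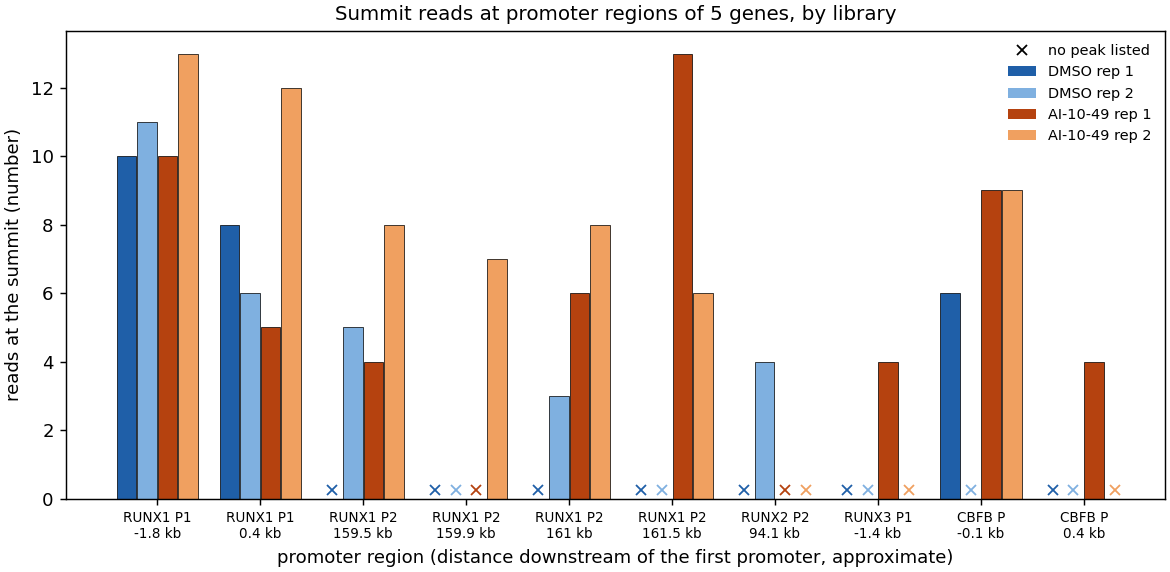
Reads at the summit of each promoter region by library, with the distance downstream of the gene's first promoter below the gene name; a cross marks a library without a listed peak. The P1 regions of RUNX1 have bars in all 4 libraries, and DMSO replicate 1 has only crosses at P2.

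Among the RUNX1 regions listed in all 4 libraries, the one with the highest treated values relative to control was chr21:36280788-36281151, 141.0 kb downstream of P1 and upstream of P2. It had 6 and 7 reads in the controls and 15 and 14 in the treated libraries. Over background these were 97.88 and 116.7 times against 155.4 and 130.1 times. It was the only one of the 24 shared regions in which both treated libraries lay above both controls over background, an order seen at 5.21% of all shared regions. Its rank percentile was 9.08 and 28.7 in the controls and 69.9 and 53.4 in the treated libraries (difference 42.8 points, exact permutation p = 0.333). This was the largest rank difference among the 24, and it was singled out after its values were seen.

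The neighbouring shared region had no such order. chr21:36283740-36283914, 138.2 kb downstream of P1, had 19 and 8 reads in the controls and 11 and 21 in the treated libraries. Its replicates differed by more than the groups, at 310.0 and 133.3 against 114.0 and 195.2 times the background.

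The first intron of RUNX1, downstream of P1, is known to hold an enhancer active in blood stem cells. The region chr21:36398955-36399410, 22.8 kb downstream of P1, lies there, and whether it is that enhancer was not tested. It had 9 and 10 reads in the controls and 13 and 20 in the treated libraries, and 2 summits in every library. Over background it was at 146.8 and 166.7 times in the controls and 134.7 and 185.9 times in the treated libraries, and the groups overlapped. Its rank was 47.1 and 58.6 in the controls and 60.1 and 79.0 in the treated libraries, without overlap, an order seen at 19.6% of shared regions. Among the shared regions of RUNX1 it was thus one of 2 that ranked higher in both treated libraries.

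Towards the 3′ end of RUNX1 lay a pair of regions 242.0 and 241.4 kb downstream of P1. The first, chr21:36179937-36180100, had 14 and 15 reads in the controls and 11 and 20 in the treated libraries. The second, chr21:36180466-36180834, had 14 and 8 reads in the controls and 9 and 12 in the treated libraries. Over background both lay lower in both treated libraries, at 228.4 and 250 against 114.0 and 185.9 times, and at 228.4 and 133.3 against 93.26 and 111.5 times. That order was seen at 47.9% of all shared regions. In rank the groups overlapped at both regions of the pair.

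Further shared RUNX1 regions were weaker. chr21:36237901-36238151, 184.0 kb downstream of P1, had 7 and 7 reads in the controls and 7 and 6 in the treated libraries. In the flank beyond the 3′ end, chr21:36117902-36118095 had 6 and 6 reads in the controls and 6 and 9 in the treated libraries. At both, heights over background were lower in both treated libraries, as at 47.9% of all shared regions, and ranks overlapped. Of the RUNX1 regions listed in 3 libraries and outside the promoters, chr21:36356042-36356233 had 6 reads in DMSO replicate 2 and 8 and 8 in the treated libraries, and chr21:36325142-36325309 had 3 and 3 in the controls and 5 in AI-10-49 replicate 2. The AI-10-49-only region chr21:36217014-36217126, 204.9 kb downstream of P1, had 5 and 8 reads, or 51.81 and 74.35 times the background. At the DMSO backgrounds these heights would be 3.11 to 4.56 reads. DMSO peaks with a local background of 1.5 to 3 times the library's were listed from 2 reads, with a median of 5. The part of the listing limit in the absence from DMSO lists was not tested.

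The shared regions of RUNX2 lay away from both of its starts. The region nearest P1, chr6:45278362-45278547, lay 17.5 kb away and was listed in 3 libraries, with 5 and 6 reads in the controls and 4 in AI-10-49 replicate 2. P2 had chr6:45390052-45390130, with 4 reads in DMSO replicate 2. Nearby, chr6:45387349-45387474 had 5 reads in DMSO replicate 1 and 6 and 10 with AI-10-49.

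The widest RUNX2 region, chr6:45345264-45345980, 49.6 kb downstream of P1, spanned 717 bp and had 10 and 10 reads in the controls and 11 and 13 in the treated libraries. These are the strongest peaks of each library there, which did not all cover the same bases. The peak of 10 reads in DMSO replicate 2 was chr6:45345875-45345977. The peak of 11 reads in AI-10-49 replicate 1 was chr6:45345315-45345823, which does not overlap it. SUPT3H, which encodes a subunit of a histone acetyltransferase complex, overlaps RUNX2 in the RefSeq gene table, and the region was not assigned to either gene. Whether it lies at a start of SUPT3H was not tested. The region's heights were 163.1 and 166.7 times the background in the controls and 114.0 and 120.8 times in the treated libraries. The order was that of 47.9% of shared regions, and ranks overlapped.

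Further downstream, chr6:45463554-45463875, 167.7 kb downstream of P1, had 9 and 8 reads in the controls and 8 and 8 in the treated libraries. Over background it was at 146.8 and 133.3 times in the controls and 82.9 and 74.35 times in the treated libraries. Its rank was 46.9 and 46.5 in the controls and 38.3 and 31.7 in the treated libraries. In the 3′ flank, chr6:45558154-45558306 had 6 and 5 reads in the controls and 5 and 4 in the treated libraries, with ranks of 34.1 and 30.5 against 19.7 and 7.14. Its heights were 97.88 and 83.33 times the background in the controls and 51.81 and 37.17 times in the treated libraries. Among the 24 shared regions its rank fell most (-18.9 points) and its log2 height ratio was lowest (-1.03), as seen after the values were known. Heights of both regions were lower in both treated libraries, as at 47.9% of all shared regions. Of the 7 shared RUNX2 regions these 2 had lower ranks in both treated libraries, with an exact permutation p of 0.333 at either, an order seen at 18.8% of all shared regions.

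Another 2 of the 7 had the opposite order, seen at 19.6% of all shared regions. In the 5′ flank, chr6:45262105-45262298 had 8 and 6 reads in the controls and 10 and 10 in the treated libraries, and ranks of 60.8 and 54.5 against 68.2 and 64.8. chr6:45354327-45354573 had 3 and 3 reads in the controls and 4 and 5 in the treated libraries, and ranks of 7.95 and 7.23 against 12 and 18.2, although its heights over background were lower in both treated libraries, at 48.94 and 50 against 41.45 and 46.47 times. At chr6:45404654-45404801 the reads were 5 and 5 in the controls and 4 and 11 in the treated libraries, and at chr6:45413510-45413836 they were 5 and 10 against 7 and 10. Ranks overlapped at both. Outside the shared regions, chr6:45422104-45422252 had 5 and 3 reads in the controls and 8 in AI-10-49 replicate 1, and chr6:45462627-45462754 had 5 and 7 reads in the controls and 9 in AI-10-49 replicate 2.

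RUNX3 had 7 regions, none with more than 8 reads. The region inside the gene that all 4 libraries listed, chr1:25281630-25281953, 10.2 kb downstream of P1, had 6 and 6 reads in the controls and 5 and 7 in the treated libraries. Its heights were 97.88 and 100.0 times the background in the controls and 51.81 and 65.06 times in the treated libraries, and its ranks 29.4 and 36.1 against 10.5 and 29.0. Both measures were lower in both treated libraries (exact permutation p = 0.333 for the rank). Over all shared regions this order was seen at 47.9% for height and at 18.8% for rank. The region at P1, chr1:25293326-25293396, had 4 reads in AI-10-49 replicate 1 and was listed in no other library. The region nearest P2, chr1:25236090-25236276, lay 20.7 kb away, with 5 and 6 reads in the controls and 7 in AI-10-49 replicate 1.

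The other shared RUNX3 regions lay beyond its 3′ end. chr1:25199034-25199331 had 5 and 6 reads in the controls and 7 and 8 in the treated libraries. Over background the order was the opposite, at 81.57 and 100.0 times in the controls and 72.54 and 74.35 times in the treated libraries. Heights were lower in both treated libraries at 47.9% of all shared regions. chr1:25190995-25191156 had 3 and 2 reads in the controls and 5 and 3 in the treated libraries, and ranked below the 20th percentile in every library. Ranks overlapped between groups at both.

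The CBFB promoter, which drives the fusion gene on the rearranged chromosome, was listed at chr16:67062824-67063027. It had 6 reads in DMSO replicate 1, no listed peak in DMSO replicate 2, and 9 and 9 reads with AI-10-49. Over background these were 97.88 times in the control and 93.26 and 83.64 times with AI-10-49. The listed libraries thus had similar heights over background. A second promoter region, chr16:67063324-67063391, had 4 reads in AI-10-49 replicate 1 only.

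Within CBFB, chr16:67089707-67089861, 26.8 kb downstream of the start, was listed with AI-10-49 only, with 6 and 6 reads, or 62.18 and 55.76 times the background. At the DMSO backgrounds these heights would be 3.35 to 3.81 reads. DMSO peaks with a local background below 1.5 times the library's were listed from 2 reads, with a median of 3. The part of the listing limit was not tested here either. In the 5′ flank, chr16:67051879-67052086 had 6 reads in DMSO replicate 2 and 3 and 10 with AI-10-49.

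Both regions of the CBFB window that all 4 libraries listed lay beyond its 3′ end, where PHAF1 is the next gene in the RefSeq table. chr16:67144527-67144700 had 8 and 7 reads in the controls and 10 and 16 in the treated libraries, and ranks of 50 and 46.8 against 58.7 and 78.2. chr16:67150962-67151089 had 4 and 3 reads in the controls and 6 and 7 in the treated libraries, and ranks of 14.9 and 6.8 against 33.9 and 36.9. Both ranked higher in both treated libraries, as 19.6% of all shared regions did, while their heights over background overlapped between groups. Close to the first, chr16:67143706-67143868 was listed with AI-10-49 only, with 6 and 7 reads, or 62.18 and 65.06 times the background. Which gene these regions serve was not tested.

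MYH11 had no listed peak at its promoter in any library. The nearest region, chr16:15923431-15923503, lay 27.5 kb away, with 3 reads in DMSO replicate 1. Inside the gene, chr16:15859855-15860011 had 3 reads in DMSO replicate 2 and 4 and 7 with AI-10-49. chr16:15798511-15798638, near the 3′ end, which is the part joined to CBFB in the fusion, had 3 reads in DMSO replicate 1 and 5 in AI-10-49 replicate 2. All 5 regions inside MYH11 had 7 reads or fewer.

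The shared MYH11 regions lay in the flanks. chr16:15982403-15982729, 31.6 kb upstream of the start, was the strongest region of all 81, with 30 and 24 reads in the controls and 41 and 38 in the treated libraries. CEP20 is the next gene on that side in the RefSeq table. Whether the region lies at a start of CEP20, and which gene it serves, was not tested. The region's rank was 98.7 and 98.5 in the controls and 99.1 and 97.5 in the treated libraries. NDE1 overlaps MYH11 in the same table. In the 3′ flank, chr16:15766670-15766959 had 11 and 7 reads in the controls and 13 and 15 in the treated libraries, and chr16:15776069-15776154 had 6 and 6 against 10 and 6. The former ranked higher in both treated libraries, at 71.5 and 75.3 against 70.4 and 43.3 in the controls, and the nearest libraries were close together. Such an order was seen at 19.6% of all shared regions.

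**Figure D4:**
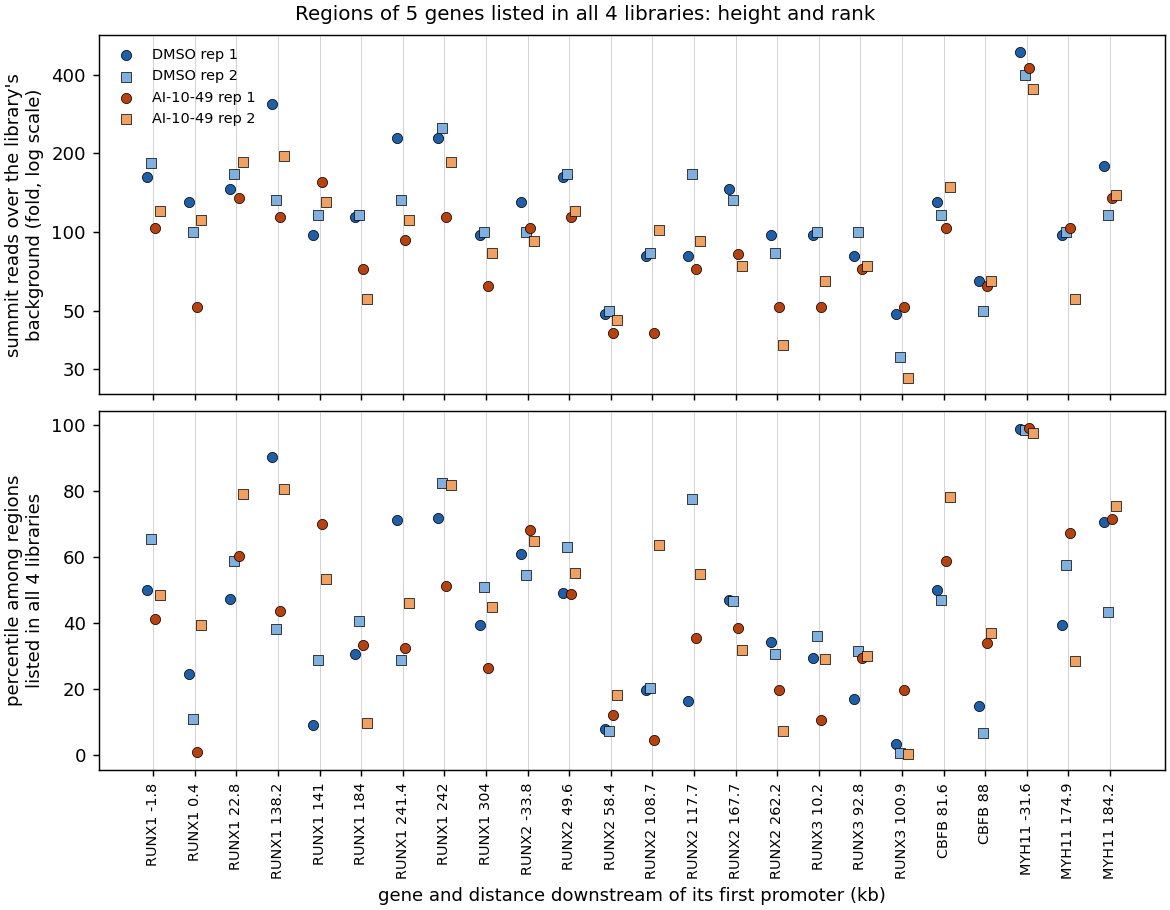
Summit reads over the library's background (fold, log scale, top) and percentile among all regions listed in all 4 libraries (bottom) for the 24 shared regions, named by gene and distance downstream of its first promoter in kb. Treated libraries are both above both controls in the top panel at 1 region, RUNX1 141 kb, and both below at 11.

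Over the 24 shared regions, treated heights over background were lower in both libraries at 11, or 45.8%, against 47.9% over the genome, and higher in both at 1, or 4.17%, against 5.21%. The median log2 ratio of mean treated to mean control height was -0.38 at the 24 regions and -0.42 over all shared regions, and 12 of the 24 lay below the latter. In rank, 4 of 24 regions (16.7%) were lower and 7 of 24 (29.2%) were higher in both treated libraries, against 18.8% and 19.6% over the genome. The regions ranked lower were 1 at RUNX1, 2 at RUNX2 and 1 at RUNX3. Those ranked higher were 2 at RUNX1, 2 at RUNX2, 2 at CBFB and 1 at MYH11. The median rank of the 24 was 39.4 and 41.8 in the controls and 36.8 and 47.1 in the treated libraries, a mean difference of 1.33 points (exact permutation p = 1). Its sign turned without AI-10-49 replicate 2, to -0.474.

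Regions listed in 1 group only were 0 of 29 for DMSO and 4 of 35 for AI-10-49. Over the genome 11.8% of the regions in both DMSO lists were absent from both AI-10-49 lists, and 5.36% of those in both AI-10-49 lists were absent from both DMSO lists. The 4 AI-10-49-only regions are those given above, 2 at RUNX1 and 2 at CBFB, and RUNX2, RUNX3 and MYH11 had 0 of either kind. These numbers are small and depended on the lists. For the settings below, counts at the 5 genes stand beside shares over the genome, without the number of regions tested at the genes. The counts can therefore not be read as above or below those shares. With summits of at least 60 times the background there were 2 DMSO-only and 2 AI-10-49-only regions, against 17% and 3% over the genome, and 1 of the 4 was still AI-10-49-only. That region was chr16:67143706-67143868 at CBFB. Limiting the −log10 q-value to 5 or more left 1 and 3, against 6.4% and 9.98%, with a different 1 of the 4, chr16:67089707-67089861 at CBFB. Neither RUNX1 region was still AI-10-49-only under either limit. With at least 5 reads there were 1 and 6, against 4.17% and 10.4%, and all 4 were still AI-10-49-only. Leaving out a library relaxes the rule, and the shares over the genome rose too. Dropping DMSO replicate 1 gave 10 DMSO-only and 6 AI-10-49-only regions, against 34.1% and 15.2% over the genome. Dropping DMSO replicate 2 gave 20 and 8, against 33.0% and 11.9%. Dropping AI-10-49 replicate 1 gave 2 and 7, against 18.6% and 16.0%, and dropping AI-10-49 replicate 2 gave 3 and 9, against 22.4% and 14.3%.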

How the data were processed

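The 4 peak lists from ATAC-seq, 1 per library, are deposited peak calls. Per the submitters' processing notes the build was hg19 and cutadapt 1.3, Bowtie2, Picard 1.96, MACS2 2.1.0 and deepTools were named, without their roles. Each deposited peak had a fold enrichment at its summit (a ratio), a −log10 p-value and −log10 q-value, and a score, which was not used further. Only chromosomes 1 to 22 and X were used, and rows of equal coordinates were collapsed. The fold and −log10 p-value were solved together for the summit's whole reads and its local background, taking p as a Poisson tail (tolerance 0.001). More than 1 whole number met the tolerance in 367 to 490 rows per library, and the closest was taken. In 4 or 5 rows per library none did. Solving was tested on simulated data made with the same Poisson formula. No library totals were used, so depth is described by the background. Regions merged peaks overlapping by 1 bp. Ranks are percentiles of −log10 p-values among regions of all 4 lists. Groups were compared by two-sided exact permutation tests (Python 3.11.15, scipy 1.17.1). The 5 genes, their windows and the regions described were chosen with earlier results of these data known. P2 positions of RUNX2 and RUNX3 came from general knowledge. All promoter regions, regions in all 4 libraries and group-only regions are named, with some of the other regions, picked after their values were seen. A hg19 annotation was not used here, so other genes of the pathway were not analysed.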

Additional observations from a re-analysis of the deposited data

How the results depend on the processing

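Settings with at least 5 reads or at least 60 times the background were chosen after seeing the data. The mean difference in peaks at the 5 genes (AI-10-49 minus DMSO, -7.5) turned to 6.5 when the −log10 q-value was limited to 5 or more, to 7.5 with equally long lists and to 7 with at least 5 reads, stayed negative at 60 times the background (-3.5), and was -9.5 to -5.5 when 1 library was left out. By gene, RUNX1 turned from -2 to 2 with the q-value limit and to 4.5 with equally long lists, and was -4.5 to 0.5 with a library left out, positive without DMSO replicate 1. RUNX2 turned to 1 and MYH11 to 0.5 with the q-value limit, RUNX3 and MYH11 to 0.5 with equally long lists, and CBFB to -0.5 with flanks of 100 kb. DMSO-only regions (0) numbered 1 with the q-value limit, 4 with flanks of 100 kb, 1 with 50% reciprocal overlap, 1 with at least 5 reads and 2 at 60 times the background, and 2 to 20 with a library left out. AI-10-49-only regions (4) numbered 3 with the q-value limit, 6 with equally long lists and 3 with no flank. They numbered 6 with at least 5 reads, 2 at 60 times the background and 6 to 9 with a library left out. The rank difference (1.33) turned to -1 with 50% reciprocal overlap and to -2.63 at 60 times the background, rose to 7.19 with the q-value limit and to 10.1 with no flank, and ranged from -0.474 to 8.48 with a library left out. Fewer peaks entered under stricter limits; otherwise the cause was not tested. With the replicate number as a block, the peak difference stayed -7.5 (exact p = 0.5, the smallest 2 pairs allow) and the rank difference 1.33 (exact p = 1). The sample titles link same-numbered libraries only by that number. Their rank deviations from the group means had r = 0.00545 over 29042 shared regions, which cannot show whether the libraries were paired. Depth limits these lists: regions rested on 2 to 41 reads.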
